A study of Mus musculus with 2 samples.

Results

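The genes described here are 9 apolipoprotein genes (*Apoa1*, *Apoa2*, *Apoa4*, *Apoa5*, *Apob*, *Apoc1*, *Apoc2*, *Apoc3* and *Apoe*) and *Mttp*, which encodes microsomal triglyceride transfer protein. They were taken by symbol from the liver mRNA sequencing of 1 control and 1 iFIRKO library, so they are 10 of the 53241 distinct gene symbols listed. iFIRKO mice carry Adipoq-CreERT2 and Insr flox/flox, in which a tamoxifen-inducible Cre under the adiponectin promoter deletes the insulin receptor gene in adipocytes. The labels give the control genotype as WT, while the study's methods give IR flox/flox without Cre. Both groups were male mice of 7 weeks that received tamoxifen at 100 mg/kg intraperitoneally on 5 days, and the liver was taken 3 days after the last dose. How many mice stand behind each library is not given in the sources used here. With 1 library per genotype no difference has a replicate check, no p-value was computed, and the libraries, not the genotypes, are compared.

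Apolipoproteins coat the lipoprotein particles that carry triglyceride and cholesterol in blood, and in the liver they are made mainly by hepatocytes. Apolipoprotein B is the scaffold of very low density lipoprotein (VLDL), and the Mttp protein loads it with lipid in the endoplasmic reticulum. Apolipoproteins A-I and A-II are the main proteins of high density lipoprotein (HDL), the C apolipoproteins and A-V act on the lipases that empty triglyceride-rich particles, and apolipoprotein E is the ligand by which receptors take up what remains.

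Values are normalized reads per gene, which are the deposited log2 values returned to the linear scale. Fold changes are iFIRKO over control with a pseudocount of 4.18 normalized reads, and "higher" or "lower" calls mean a change of more than 1.5-fold, the threshold of the study (0.58 on the log2 scale). Brackets hold 95% intervals by the exact Clopper-Pearson method, computed from estimated read pairs, which cover counting error only. The estimated depth was 21138484 read pairs in control liver and 20652740 in iFIRKO liver. *Insr*, which is targeted in adipocytes and not in hepatocytes, had 4246 normalized reads in control liver and 3692 in iFIRKO liver, with a log2 fold change of -0.20 (-0.29 to -0.11).

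Of the 10 genes, 3 rose (*Apoa4*, *Apoa5* and *Apoc3*), 1 fell (*Apoa1*) and 6 stayed within 1.5-fold. Over the 13390 genes tested, which reached 41.8 normalized reads (a CPM of 1) in control or iFIRKO liver, 4.46% were more than 1.5-fold higher and 7.29% were more than 1.5-fold lower. With the libraries scaled to hepatocyte markers instead, these shares were 6.72% and 5.19%. Among the 1476 genes at a CPM of 100 or more, the range in which 9 of the 10 genes lie in both libraries or in 1 of them, the shares were 4.2% and 4.27%. *Apoa4* reached that level in the iFIRKO library only. The median log2 fold change of the 10 genes was 0.16, beside 0.01 over all tested genes. All 4 genes past the threshold lie in a single cluster on chromosome 9, and no gene of that cluster among the 10 was within it.

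**Figure D1:**
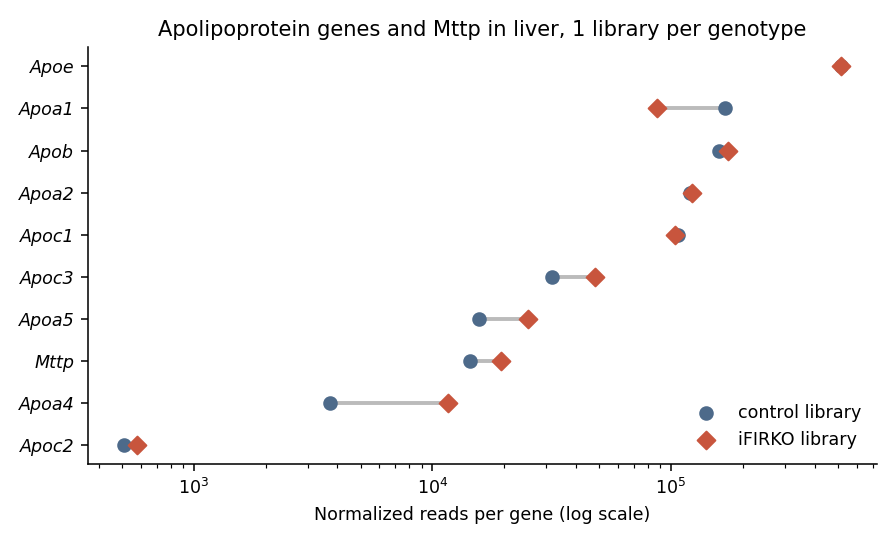
Normalized reads per gene (log scale, x axis) of the 9 apolipoprotein genes and *Mttp* in the control library (circles) and the iFIRKO library (diamonds), with a line joining the values of each gene. The longest lines are those of *Apoa4*, from 3708 to 11666, and of *Apoa1*, from 168382 to 87600, while the *Apoe* symbols coincide near 516999.

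The chromosome 9 cluster spans 43.3 kb in GENCODE M21 on GRCm38 and holds *Apoa1* (46228580 to 46230466, forward strand), *Apoc3* (46232933 to 46235636, reverse), *Apoa4* (46240696 to 46243459, forward) and *Apoa5* (46268633 to 46271919, forward). *Apoa1* and *Apoc3* end 2466 nt from each other, tail to tail. The sequence just before the start of each forward-strand gene is shown here because *Apoa1* fell while *Apoa4* and *Apoa5* rose. The stretches are from RefSeq promoter windows on GRCm38.p6, forward strand, and were taken to lie upstream of the starts annotated by both RefSeq and GENCODE. They are chr9:46228380-46228579 for *Apoa1*, chr9:46240594-46240695 for *Apoa4* and chr9:46268358-46268607 for *Apoa5*. Capitals mark matches to the motifs searched, which are given with their shares of all promoters further on.
Apoa1: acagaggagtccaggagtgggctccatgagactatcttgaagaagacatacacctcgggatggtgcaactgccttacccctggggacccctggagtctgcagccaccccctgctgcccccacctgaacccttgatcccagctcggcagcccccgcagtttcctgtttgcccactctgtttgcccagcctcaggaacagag
Apoa4: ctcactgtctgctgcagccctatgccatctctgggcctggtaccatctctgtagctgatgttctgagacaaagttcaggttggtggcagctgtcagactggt
Apoa5: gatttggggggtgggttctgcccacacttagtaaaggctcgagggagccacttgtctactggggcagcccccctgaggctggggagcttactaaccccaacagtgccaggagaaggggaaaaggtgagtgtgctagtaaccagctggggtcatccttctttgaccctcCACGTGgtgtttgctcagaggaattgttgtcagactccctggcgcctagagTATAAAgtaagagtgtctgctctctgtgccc

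The G and C content of the stretches was 60.5% for *Apoa1*, 53.9% for *Apoa4* and 55.6% for *Apoa5*. The *Apoa5* stretch holds an E-box, CACGTG, at positions -82 to -77 from the RefSeq start, and a TATA box, TATAAA, at -31 to -26. None of the motifs searched had a match in the *Apoa1* and *Apoa4* stretches, which says only that these letters are not in these windows.

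*Apoa1* encodes apolipoprotein A-I, the main structural protein of HDL and the activator of the cholesterol-esterifying enzyme Lcat. It had 168382 normalized reads in control liver and 87600 in the iFIRKO library. It fell 1.92-fold, a log2 fold change of -0.94 (-0.96 to -0.93). Its share of all normalized reads was 0.401% in the control and 0.211% in the iFIRKO liver. Of the 1476 genes at a CPM of 100 or more, 16 had a lower log2 fold change.

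*Apoa4* encodes apolipoprotein A-IV, a lipid-binding protein of triglyceride-rich particles and HDL. It had 3708 normalized reads in control liver and 11666 in the iFIRKO library. It rose 3.14-fold (2.99 to 3.32), or by 1.65 on the log2 scale (1.58 to 1.73). Of the 13390 tested genes, 99.7% had a lower log2 fold change, and *Apoa4* passed the minimum of that set in both libraries. A CPM of 100 (4179 normalized reads) was reached by *Apoa4* in the iFIRKO library only, so its place among genes of that level is not given. *Apoa4* shares 34.8% of its exonic bases with the antisense gene *Gm10680*, listed at 6.15 and 9.48 normalized reads, and the authors' counting is not stated to use strand.

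*Apoa5* encodes apolipoprotein A-V, which promotes the hydrolysis of plasma triglyceride by lipoprotein lipase. Its value was 15715 normalized reads in control liver and 25056 in the iFIRKO library, and it rose 1.59-fold, a log2 fold change of 0.67 (0.63 to 0.71). *Apoc3* encodes apolipoprotein C-III, which inhibits lipoprotein lipase and slows particle uptake. Its value was 31647 in the control and 48182 in the iFIRKO library, and it rose 1.52-fold, a log2 fold change of 0.61 (0.58 to 0.64). The lower end of the *Apoc3* interval was under the threshold, and with upper-quartile scaling *Apoc3* was no longer past it.

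**Figure D2:**
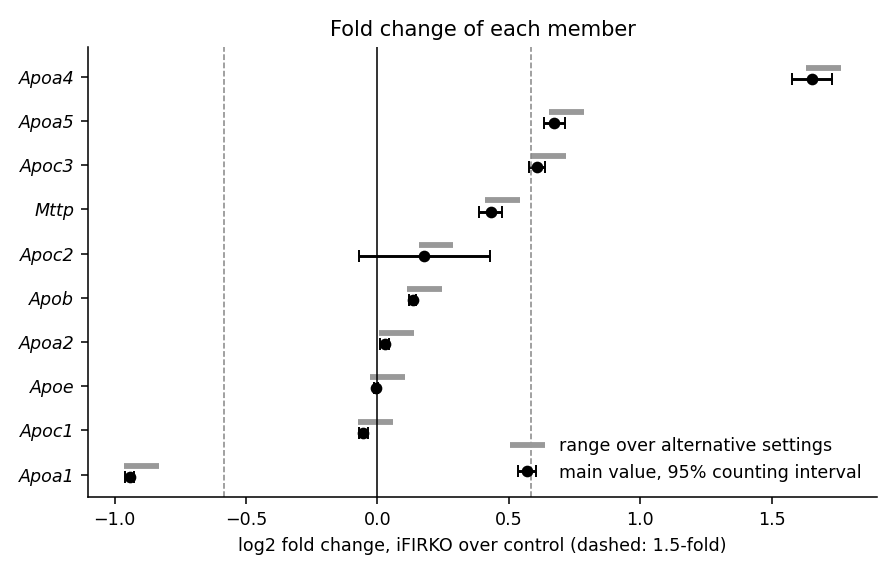
Log2 fold change (iFIRKO over control, x axis) of each gene, with its 95% counting interval (black) and the range over the alternative settings (grey bar), and dashed lines at 1.5-fold. *Apoa4* (1.65), *Apoa5* (0.67) and *Apoc3* (0.61) sit to the right of the upper line and *Apoa1* (-0.94) to the left of the lower line, with the end of the *Apoc3* bar at the line.

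Ratios between genes of the same library do not depend on how the libraries were scaled. The *Apoa4* to *Apoa1* ratio of normalized reads was 0.0220 in the control and 0.133 in the iFIRKO library, a 6.05-fold difference. The *Apoc3* to *Apoa1* ratio was 0.188 and 0.550, and the *Apoa5* to *Apoa1* ratio was 0.0933 and 0.286. All 3 ratios were therefore higher in the iFIRKO library, with counting intervals that did not overlap. The ratio of *Apoa5* to *Apoc3*, the activator against the inhibitor of triglyceride hydrolysis, was 0.497 (0.483 to 0.510) in the control and 0.520 (0.509 to 0.531) in the iFIRKO library. These intervals overlap, which does not test whether the ratios differ. The ratio of *Apoc2*, another lipase activator, to *Apoc3* was 0.0161 (0.0142 to 0.0182) in the control and 0.0120 (0.0106 to 0.0134) in the iFIRKO library. Those intervals did not overlap, but the *Apoc2* row is uncertain, as described below.

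Summed over the cluster, normalized reads went from 219452 in the control to 172504 in iFIRKO liver, with a log2 fold change of -0.35 (-0.36 to -0.33). *Apoa1* held most of these reads. Without it the sum of *Apoa4*, *Apoa5* and *Apoc3* was 51070 in the control and 84905 in iFIRKO liver, with a log2 fold change of 0.73 (0.71 to 0.76). The sum therefore has the direction of *Apoa1*, opposite to that of the other genes of the cluster.

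Within 100 kb of the cluster, 3 other protein-coding genes were tested and 0 passed the threshold. *Zpr1*, which lies 1.15 kb beyond *Apoa5*, had 1598 normalized reads in control liver and 1610 in the iFIRKO library (log2 fold change 0.01). *Sik3*, which lies 4.39 kb before *Apoa1*, had 2326 and 2116 (-0.14), and *Bud13*, 11.1 kb away, had 247 and 244 (-0.02). The neighbours on both sides thus stayed within 1.5-fold, beside 4 of 4 apolipoprotein genes between them that did not.

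**Figure D3:**
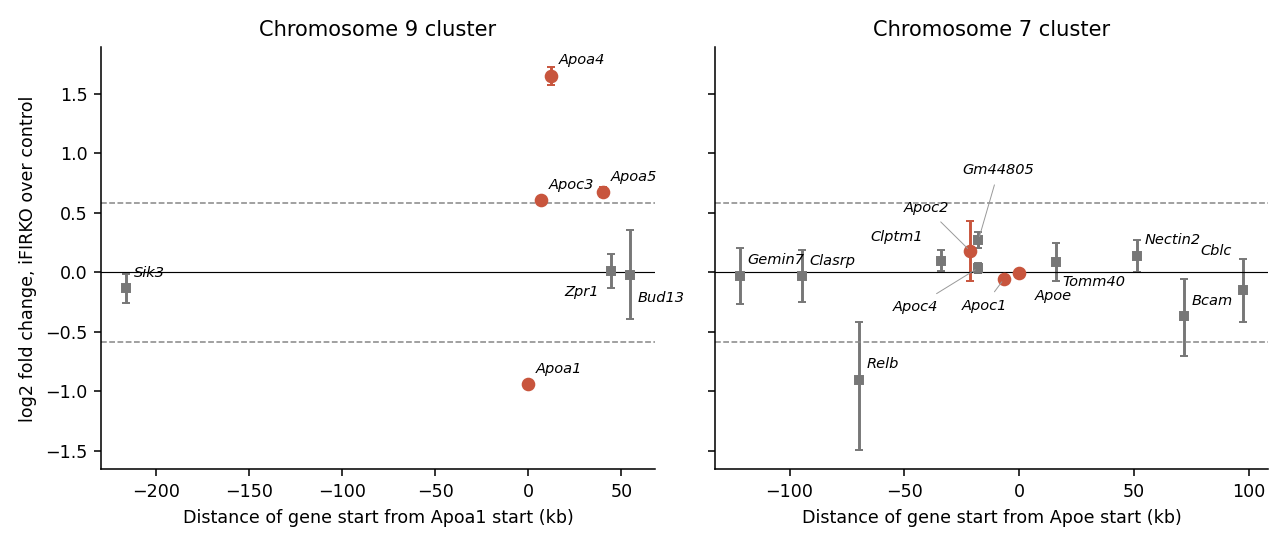
Log2 fold change (iFIRKO over control, y axis, with 95% counting intervals) against the distance of each gene's start from the *Apoa1* start (left) or the *Apoe* start (right) in kb, for the apolipoprotein genes of the 2 clusters (circles) and the other tested genes within 100 kb (squares), with dashed lines at 1.5-fold. On the left the circles lie from -0.94 to 1.65 and the squares near 0, whereas on the right all 3 circles lie between -0.05 and 0.18.

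The chromosome 7 cluster spans 27.6 kb and holds *Apoe* (19696109 to 19699188), *Apoc1* (19689481 to 19692660) and *Apoc2* (19671579 to 19677941), all on the reverse strand. *Apoe*, the receptor ligand, had 516999 normalized reads in control liver and 514920 in iFIRKO liver, with a log2 fold change of -0.01 (-0.01 to 0.00). *Apoc1* encodes apolipoprotein C-I, an inhibitor of particle uptake, and had 107403 and 103482 normalized reads, a log2 fold change of -0.05 (-0.07 to -0.04). Neither gene passed the threshold, and the *Apoc1* to *Apoe* ratio was 0.208 in the control and 0.201 in the iFIRKO library. *Apoe*, *Apoc1* and *Apoc2* together summed to 624911 and 618979 normalized reads, a log2 fold change of -0.01. *Apoe* is also made by macrophages, and the values of macrophage markers are given with the other cell types.

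*Apoc2* encodes apolipoprotein C-II, the cofactor that lipoprotein lipase requires. Its row held 509 normalized reads in control liver and 576 in the iFIRKO library, from an estimated 256 and 286 read pairs, and its log2 fold change was 0.18, which counting error does not separate from 0 (-0.07 to 0.43). This row is uncertain, because *Gm44805*, an annotated gene on the same strand that reads from the start of *Apoc4* into *Apoc2*, shares 79.5% of the exonic bases of *Apoc2*. The exon 1 to exon 2 junctions are shown because they are what separates the 3 transcripts. Each line gives 15 bases on either side, 5′ to 3′ on the reverse strand of chromosome 7 (GRCm38, GENCODE M21 transcripts), with exon 2 in capitals.
Apoc2: aagtcttagaggccgGCCTGCCACCCCACC
Gm44805: tggtcagctttgtagGCCTGCCACCCCACC
Apoc4: tggtcagctttgtagCATCCATGTCTACAG

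*Apoc2* and *Gm44805* share exon 2, which begins at base 19676884, and the exon 1 side of *Gm44805* is that of *Apoc4*, ending at base 19681305. Reads that lie within the shared exonic bases cannot tell *Apoc2* from *Gm44805*. The *Gm44805* row held 6477 normalized reads in control liver and 7804 in iFIRKO liver, with a log2 fold change of 0.27 (0.20 to 0.34), and *Apoc4*, another lipoprotein protein, held 16260 and 16695 (0.04). With *Apoc2* and *Gm44805* summed, a choice made after the values were seen, normalized reads were 6986 and 8380, and this sum, too, was within 1.5-fold (log2 fold change 0.26, 0.20 to 0.33). Of the 10 other tested genes within 100 kb, 0 were higher and 1 was lower, *Relb*, a subunit of the transcription factor NF-κB, with 178 and 93.5 normalized reads (-0.90).

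*Apob* (chromosome 12, 7977648 to 8016835, forward), the scaffold of VLDL, had 158321 normalized reads in control liver and 173667 in the iFIRKO library. Its log2 fold change was 0.13 (0.12 to 0.15), a 1.10-fold difference that is under the threshold. *Mttp* (chromosome 3, 138089854 to 138144968, reverse) had 14369 and 19372 normalized reads. Its difference was 1.35-fold, a log2 fold change of 0.43 (0.39 to 0.48), and its whole interval lay between no change and 1.5-fold. The *Mttp* to *Apob* ratio within a library was 0.0908 in the control and 0.112 in the iFIRKO liver, and the counting intervals of these ratios did not overlap.

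*Apoa2* (chromosome 1, 171225054 to 171226379, forward), which encodes the other main protein of HDL, had 120511 normalized reads in control liver and 122822 in iFIRKO liver, with a log2 fold change of 0.03 (0.01 to 0.04). The mRNAs of the main HDL proteins thus differed from each other: the *Apoa2* to *Apoa1* ratio was 0.716 (0.708 to 0.723) in the control and 1.40 (1.38 to 1.42) in the iFIRKO library. Of 12 tested neighbours of *Apoa2* within 100 kb, 0 were higher and 2 were lower, *Pcp4l1* and *Adamts4*. *Pcp4l1* had 4103 and 2476 normalized reads, with a log2 fold change of -0.73 (-0.83 to -0.63). *Adamts4* had only 44.8 and 26.2, and counting error does not separate its log2 fold change of -0.69 from 0 (-1.91 to 0.24). *Apob* had no other protein-coding gene within 100 kb, and 0 of 2 tested neighbours of *Mttp* passed the threshold.

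**Figure D4:**
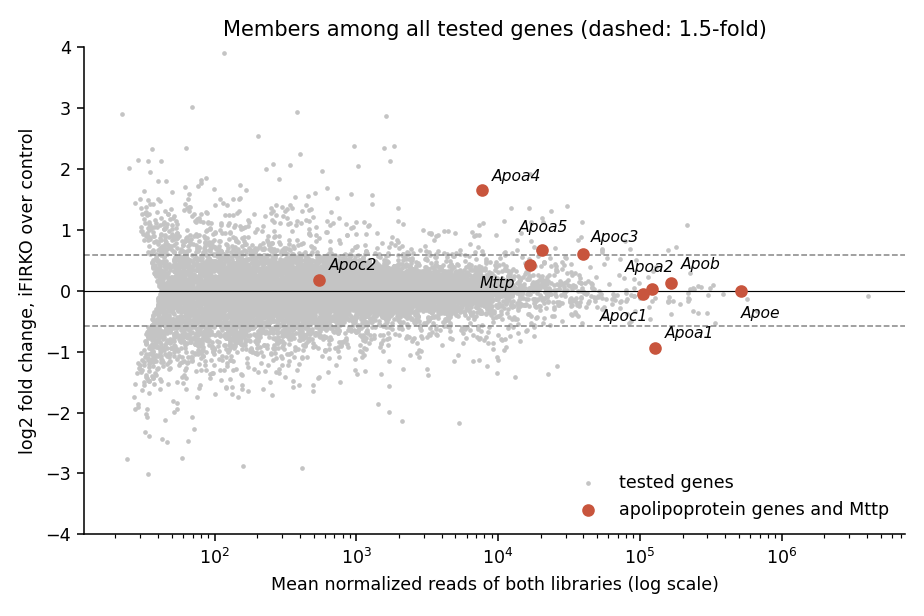
Log2 fold change (iFIRKO over control, y axis) against mean normalized reads of both libraries (log scale, x axis) for all tested genes (grey) and the 9 apolipoprotein genes and *Mttp* (coloured), with dashed lines at 1.5-fold. *Apoa4* and *Apoa1* lie at the upper and lower edge of the genes of their level, and 2 tested genes lie outside the axis.

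Levels of different genes were compared per kb of the longest annotated coding transcript. In the control library the order was *Apoe* (367187 normalized reads per kb), *Apoa2* (232647), *Apoc1* (201885), *Apoa1* (162688), *Apoc3* (44636), *Apob* (11362), *Apoa5* (6249), *Mttp* (3626), *Apoa4* (2043) and *Apoc2* (700). The order in the iFIRKO library was the same except that *Apoa4* (6428 per kb) stood above *Mttp* (4888). *Apoa1*, still in place 4, had 84637 per kb there and was 1.2 times *Apoc3*, against 3.64 times in the control. No neighbours in either order had overlapping exact Poisson intervals, which cover counting error only. The place of *Apoc2* is uncertain, because its row leaves out the normalized reads listed under *Gm44805* (6477 in the control, 7804 in the iFIRKO library). That gene shares 79.5% of the exonic bases of *Apoc2*. Together the 10 genes took 2.71% (2.70 to 2.72) of all normalized reads in control liver and 2.66% (2.66 to 2.67) in the iFIRKO library.

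The RefSeq table held promoter windows, 250 bases before to 50 after a start, for 8 of the 10 genes, in 12 windows. *Apoc1* and *Apoc3* were not matched. Both strands were searched, and a match is a description of letters and not of a bound site. Some genes have more than 1 window, so shares of all promoters are set beside counts of the 12 windows, with the genes that hold them named. The E-box CACGTG was in 2 of the 12 windows (both of *Apoa5*, which overlap), beside 7.15% of 32851 promoters, and TATAAA was in 5 (*Apoa2*, *Apoa5*, *Apob* and *Apoe*), beside 13.6%. The forkhead motif GTAAACA was in 2 windows (*Apoa2* and *Apoe*), beside 3.65%, and neither gene passed the threshold. The motif GTTAAT of HNF1 was in 2 windows (*Apoc2* and *Apoe*), beside 7.10%. The nuclear receptor motif AGGTCA was in 2 windows (*Apoa2* and *Apoc2*), beside 16.3%. The *Apoc2* window also held a direct repeat of AGGNCA with 1 base between the copies, which overlaps its AGGTCA match and is in 0.381% of promoters. The cyclic AMP motif TGACGT was in 1 window (*Mttp*), beside 7.51%. The HNF4 motif CAAAGTCCA and the sterol motif TCACNCCAC were in 0 of the 12 windows, beside 0.475% and 1.24% of promoters. The *Apoa4* window held none of these motifs, so none could be shared with *Apoa5*, and *Apoc3*, which also rose, had no window.

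Other genes of lipoprotein metabolism were taken from lists, and their counts are read beside the 4.46% higher and 7.29% lower among all tested genes. Of 15 tested genes for other apolipoproteins and lipoprotein proteins, 0 were higher and 2 were lower, with a median log2 fold change of -0.09. *Apom*, the HDL carrier of sphingosine 1-phosphate, fell from 10348 to 6502 normalized reads (-0.67), and *Apol10b* fell from 56.7 to 8.05 (-2.31). *Apoh*, encoding beta-2-glycoprotein I, had 76535 and 67233 normalized reads (-0.19), and *Saa1*, an acute phase protein of HDL, had 36637 and 39995 (0.13). The log2 fold changes of these genes were smaller in size than that of *Apoa4*, except that of *Apol10b*, which rests on an estimated 29 and 4 read pairs.

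Of 24 tested genes for VLDL assembly and export, the partners of *Apob* and *Mttp*, 0 were higher and 0 were lower, and their median log2 fold change was 0.08. *P4hb*, the protein disulfide isomerase that is the partner subunit of the Mttp protein, had 71241 normalized reads in control liver and 67826 in the iFIRKO library (-0.07). *Tm6sf2*, needed for full lipid loading of VLDL, had 1614 and 1915 (0.25), and *Sec23a*, a coat protein of the vesicles that leave the endoplasmic reticulum, had 3384 and 4182 (0.31). *Hsp90b1*, a chaperone of the endoplasmic reticulum, had 41867 and 31316 (-0.42). The *Mttp* value of 0.43 was above that of every tested gene of this list. Of 5 genes for the editing of *Apob* mRNA, which in mouse liver yields the shorter apolipoprotein B-48, 0 passed the threshold. *Apobec1*, the deaminase, had 818 and 583 normalized reads (-0.49), and its cofactor *A1cf* had 2733 and 2791 (0.03).

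Of 15 tested uptake receptors and their adaptors, 0 were higher and 2 were lower, with a median of -0.01. *Scarb1*, the HDL receptor SR-BI, fell from 6672 to 4267 normalized reads (-0.64), and the sorting receptor *Sorl1* fell from 194 to 76.5 (-1.30). The other receptors named here, which take up particles that carry apolipoprotein B or E, stayed within the threshold: *Lrp1* had 39632 and 39388 normalized reads (-0.01), and *Sdc1*, a heparan sulfate proteoglycan, had 20324 and 22976 (0.18).

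Of 12 tested lipases and their regulators, 2 were higher and 1 was lower, with a median of 0.01. *Lipg*, encoding endothelial lipase, which acts mainly on HDL, rose from 230 to 687 normalized reads (1.56). *Angptl8*, whose product inhibits lipoprotein lipase, rose from 1853 to 2806 (0.60), though with upper-quartile scaling (0.58) it was no longer past the threshold. *Lpl*, the lipase on which apolipoproteins C-II, C-III and A-V act, fell from 1564 to 1029 (-0.60). In these libraries *Apoc3* and *Angptl8*, both encoding inhibitors of lipoprotein lipase, were higher, as was *Apoa5*, which promotes its action.

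Of 10 tested genes for HDL remodelling, a list that shares *Scarb1* and *Lipg* with those above, 1 was higher and 4 were lower, with a median of -0.30. *Abcg8*, part of the sterol exporter into bile, fell from 1418 to 709 normalized reads (-0.996), and the cholesterol exporter *Abcg1* fell from 372 to 207 (-0.83). *Abcg5*, named after its value was seen, had 1738 and 1289 (-0.43), within the threshold. *Pcolce2*, named because it passed the threshold, fell from 148 to 88.6 (-0.71). *Abca1*, which loads lipid onto apolipoprotein A-I, had 7775 and 7493 (-0.05), and *Lcat* had 12960 and 12766 (-0.02). *Apoa1* fell beside *Scarb1*, *Abcg1* and *Abcg8*, whereas *Abca1*, *Abcg5* and *Lcat* stayed within 1.5-fold. With the libraries scaled to hepatocyte markers, *Scarb1* too was within it (-0.53).

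Of 36 tested transcription regulators, 1 was higher and 1 was lower, with a median of -0.09. *Pparg*, the adipogenic nuclear receptor, rose from 358 to 677 normalized reads (0.91), and *Nr0b2*, the bile acid-induced repressor SHP, fell from 1480 to 861 (-0.78). *Hnf4a*, a nuclear receptor that activates many apolipoprotein genes, had 29516 and 28673 (-0.04), *Rxra* had 14902 and 14396 (-0.05), and *Mlxipl*, encoding the carbohydrate sensor ChREBP, had 21448 and 15805 (-0.44). *Creb3l3*, which activates *Apoa4*, and *Foxo1* were named after their values were seen. *Creb3l3* had 7010 and 9087 normalized reads (0.37), and *Foxo1* had 2244 and 2363 (0.07).

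**Figure D5:**
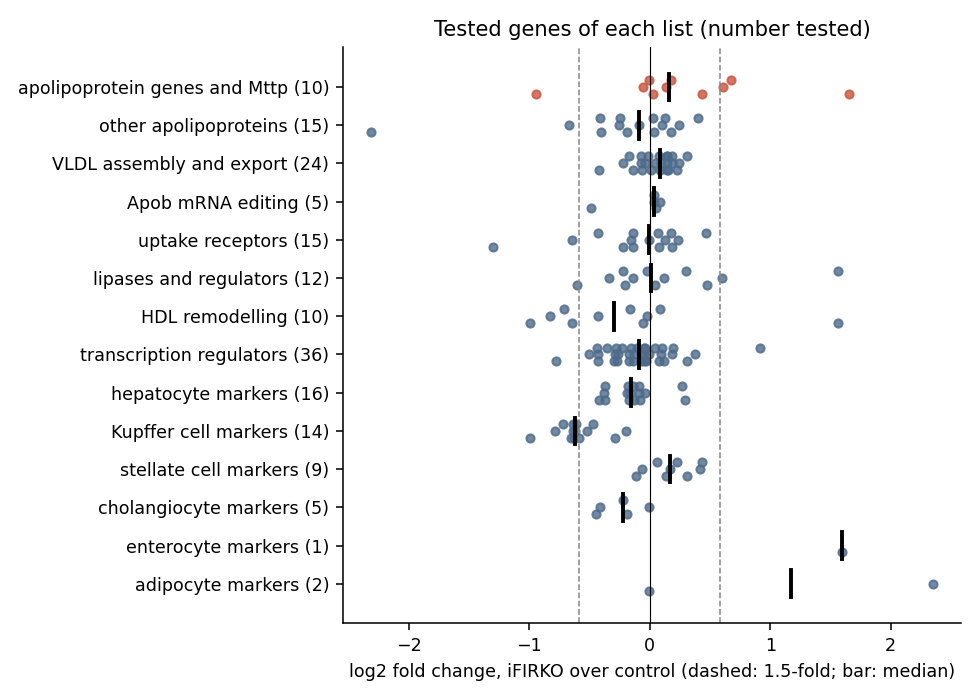
Log2 fold change (iFIRKO over control, x axis) of each tested gene (points) of the apolipoprotein genes and *Mttp* and of every other list, with the number tested in parentheses, the list median as a bar and dashed lines at 1.5-fold. The VLDL assembly points all lie inside the dashed lines, 10 of 14 Kupffer cell markers lie left of them, and the 10 apolipoprotein genes and *Mttp* lie from -0.94 to 1.65.

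Marker lists give the cell types behind these reads. All 16 hepatocyte markers were tested and 0 passed the threshold, with a median of -0.16 and 14 of 16 below 0. *Alb*, encoding albumin, had 4167150 normalized reads in the control and 3944160 in the iFIRKO library (log2 fold change -0.08). The summed list, most of it *Alb*, went from 6300670 to 5831890 normalized reads. Scaled to that sum, every value given here moves up by 0.11 on the log2 scale, the count stays at 3 higher and 1 lower, and *Apoc1* (0.06) and *Apoe* (0.11) change sign. Relative to the hepatocyte sum, *Apoa1* was at -0.83 and *Apoa4* at 1.76, while *Apom* (-0.56), *Scarb1* (-0.53) and *Lpl* (-0.49) were no longer past the threshold.

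All 14 Kupffer cell and macrophage markers had values below 0, from -0.99 to -0.20, and 10 of 14 were lower, with a median of -0.62. The summed list went from 50303 to 32787 normalized reads, with *Clec4f*, a defining Kupffer cell gene, at 8728 and 5677 (-0.62), and 0 of the 14 were listed at 0. Scaled to the hepatocyte sum, 3 of the 14 were lower. In bulk tissue, fewer cells of a type and less RNA per cell cannot be told apart. The part of these cells in the values of *Apoe*, *Apoc1*, *Lpl* and *Abcg1*, which macrophages also express, was not tested.

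*Apoa1*, *Apoa4*, *Apob*, *Apoc3* and *Mttp* are also made by enterocytes of the gut. Of 10 enterocyte markers, 8 were at or under 3 estimated read pairs in both libraries, of which 6 (*Alpi*, *Cdh17*, *Cdx1*, *Cdx2*, *Guca2b* and *Sis*) were listed at 0 in both. The summed list went from 474 to 1402 normalized reads, almost all of it *Fabp2*, a fatty acid-binding protein gene, which rose from 456 to 1384 (1.59). Of 7 adipocyte markers, 2 were tested. *Lep* and *Retn* were listed at 0 in both libraries, and *Adipoq* and *Plin1* at 0 in the control and 2.01 normalized reads, the worth of 1 read pair, in the iFIRKO library. *Cidec*, a lipid droplet gene, rose from 17.9 to 108 normalized reads (2.35), and *Fabp4* had 470 and 469 (0.00).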

How the data were processed

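Liver total RNA of 1 control and 1 iFIRKO sample, grouped by the sample labels, was sequenced as stranded mRNA libraries. For 53342 rows named by gene symbol, the authors deposited log2 values of normalized read counts, and the first row of a repeated symbol was kept. The submitters' processing notes name the build mm10. The aligner, counter, annotation and scaling are not given in the sources used here. Values were returned to the linear scale, on which the commonest low value was taken as 1 read pair. Of the low values, 46.3% (control) and 46.8% (iFIRKO) were then whole pairs, so depths are estimates and no count-based test was run. The binomial and Poisson intervals rest on estimated pairs rounded to whole numbers, which the deposited values only partly show. In the control and iFIRKO libraries, 62.2% and 62.1% of rows were listed at 0. A gene was tested if it reached a CPM of 1 in either library, and the pseudocount was a CPM of 0.1. A fold was given for no gene at 3 read pairs or fewer in both libraries.

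The members and lists were chosen with earlier results of these data known. All 10 members are named, with the 3 most abundant genes of each list and the 3 of the largest fold in size, and neighbours nearest a cluster or past the threshold. Other names were chosen after their values were seen. Results for a few single genes of the lists are left out. Positions are from GENCODE M21 and promoters from RefSeq on GRCm38.p6. Alternatives were 5 scalings, 2 pseudocounts, 2 fold thresholds, other minimums, other totals, summed duplicate rows and *Apoc2* summed with *Gm44805*. The last, and the scalings of the lists and of all genes other than median-ratio scaling of the lists, were added after seeing the data. The scripts were tested on simulated data (Python 3.11.15 with pandas 2.3.3, numpy 2.4.6, matplotlib 3.10.9 and scipy 1.17.1).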

Additional observations from a re-analysis of the deposited data

How the results depend on the processing

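No paired analysis was possible because a genotype is 1 library here, and for the same reason no library could be left out. Under 5 other scalings, 2 other pseudocounts and the sum of *Apoc2* with *Gm44805*, 71 values of single members included 0 reversals of a call, 16 that moved beyond their counting interval and 2 that changed sign, both under scaling to hepatocyte markers. The median stayed between 0.13 and 0.27. Upper-quartile scaling left 2 members higher, and a threshold of 2-fold left 1 higher and 0 lower. Without the 20 most abundant other genes the members took 3.58% of reads in the control and 3.45% in the iFIRKO library, and without mitochondrial and Mup genes 2.72% and 2.69%. Of all genes, 9.0% were higher and 12.0% lower with no minimum, 2.84% and 4.34% at a CPM of 5, and 4.27% were lower at a CPM of 100. Scaling to hepatocyte markers, added for all genes and lists after seeing the data, gave 6.72% higher, so that 56.4% of calls were higher against 38.0% as deposited. Of 182 list counts, 9 moved by over 1.5 times: at a CPM of 5, where *Apol10b*, *Sorl1* and *Cidec* were under the minimum, under 2 scalings through *Angptl8*, and under hepatocyte marker scaling through *Apom*, *Scarb1*, *Lpl* and the Kupffer cell markers. Among the members, the *Apoc2* row had the widest counting interval of the log2 fold change. It also leaves out the reads listed under *Gm44805*, which shares exonic bases with *Apoc2*.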

Other observations

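The lists for 2 further liver cell types held no gene past the threshold. Of 9 stellate cell markers, 0 were higher and 0 lower, with a median log2 fold change of 0.17. *Dcn*, the proteoglycan decorin, had 5518 normalized reads in the control and 5740 in the iFIRKO library (0.06), and *Lrat*, the enzyme that stores vitamin A as retinyl ester, had 444 and 595 (0.42). Of 5 tested cholangiocyte markers, 0 were higher and 0 lower, with a median of -0.23, and *Spp1*, encoding osteopontin, had 1827 and 1606 normalized reads (-0.19).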
